A study of Mus musculus with 4 samples.

Results

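The genes described here are 10 transcription factor genes of the lymphoid lineages, Ikzf1, Ikzf2, Ikzf3, Ebf1, Pax5, Tcf3, Bcl11a, Satb1, Foxo1 and Bach2, and the question was which of these loci already carry open chromatin in stem cells. The genes were chosen by name. Their members in the data were the 151 of 93513 peaks that overlapped a gene body or the 5000 bp upstream of it in GRCm38. The data are single-cell ATAC-seq, in which the Tn5 transposase cuts open chromatin and the cuts are counted per peak and cell.

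The study sorted LT-HSCs, the long-term hematopoietic stem cells at the top of blood formation, from C57BL/6JRj mice for which the labels name no transgene or mutation. There were 4 groups of 1 sample each: CLCA3A1high cells and CLCA3A1low cells from animals of 22 to 28 months, split by antibody to the surface protein CLCA3A1, young cells from animals of 3 to 4 months, and old cells from animals of 22 to 28 months. Each sample pooled 4 mice at 2500 cells per mouse, so no value carries an error between animals. By the methods of the study, LT-HSCs were Sca-1-positive and Kit-positive marrow cells without lineage markers, CD34 or CD135. The peak table used here is the one that the CLCA3A1high and the CLCA3A1low labels name. Its cells carry 2 barcode suffixes that no label ties to a sample, so the suffixes are called barcode set 1 and barcode set 2 and no difference between them is given a group direction.

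Lymphoid cells arise from stem cells through multipotent progenitors, in which Ikaros family and E proteins precede the B-lineage factors EBF1 and PAX5. Each of these factors binds DNA in lymphoid precursors and switches on or off the genes of antigen receptor assembly and signalling. Accessible chromatin at a locus in an upstream cell means that the DNA is not covered by nucleosomes there, and does not by itself mean that the gene is transcribed.

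The sequences at the centre of this account are those of the most open member peaks and of peaks that differed between the barcode sets. The 2 non-promoter peaks open in the largest shares of cells both lay in introns of Bach2. Capitals mark the letters GAGGAA (PU.1), TGTGGT (RUNX), TGGGAA (Ikaros), GTAAACA (FOXO) or AGATAA, the word of GATA factors, or the EBF1 palindrome, on either strand. The central 300 bases of each peak are printed from the plus strand of GRCm38. They span chr4:32249696-32249995 for the peak 11.0 kb from the gene start and chr4:32337139-32337438 for the peak 98.5 kb from it.
Bach2 intronic peak, first: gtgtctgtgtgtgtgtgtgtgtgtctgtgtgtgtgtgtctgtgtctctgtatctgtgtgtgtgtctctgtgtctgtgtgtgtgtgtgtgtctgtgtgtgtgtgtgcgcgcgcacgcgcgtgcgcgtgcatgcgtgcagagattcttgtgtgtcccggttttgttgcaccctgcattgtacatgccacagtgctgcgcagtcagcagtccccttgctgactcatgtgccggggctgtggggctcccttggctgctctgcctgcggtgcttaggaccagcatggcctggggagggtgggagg
Bach2 intronic peak, second: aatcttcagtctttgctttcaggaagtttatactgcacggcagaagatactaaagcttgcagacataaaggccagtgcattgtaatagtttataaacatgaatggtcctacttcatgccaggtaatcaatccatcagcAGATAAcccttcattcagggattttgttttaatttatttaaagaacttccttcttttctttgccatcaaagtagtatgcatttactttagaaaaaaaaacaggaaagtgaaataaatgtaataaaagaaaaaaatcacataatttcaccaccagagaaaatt

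Next are 2 Ebf1 and 2 Ikzf1 peaks that differed most between barcode sets within their gene among the intronic peaks with at least 100 counts. They were picked for their ratios, so they do not stand for the member peaks as a whole. Some peaks with fewer counts had larger ratios. The 2 Ebf1 peaks had more counts in set 1 and span chr11:44897308-44897607 and chr11:44665245-44665544. The 2 Ikzf1 peaks had more counts in set 2 and span chr11:11763228-11763527 and chr11:11711855-11712154.
Ebf1 intronic peak, 280 kb: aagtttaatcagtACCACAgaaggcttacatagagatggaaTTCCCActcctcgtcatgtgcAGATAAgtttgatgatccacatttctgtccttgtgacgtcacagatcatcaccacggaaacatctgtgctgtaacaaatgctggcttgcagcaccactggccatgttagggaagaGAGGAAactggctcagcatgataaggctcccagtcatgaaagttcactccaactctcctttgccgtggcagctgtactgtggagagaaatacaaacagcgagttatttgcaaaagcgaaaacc
Ebf1 intronic peak, 48.1 kb: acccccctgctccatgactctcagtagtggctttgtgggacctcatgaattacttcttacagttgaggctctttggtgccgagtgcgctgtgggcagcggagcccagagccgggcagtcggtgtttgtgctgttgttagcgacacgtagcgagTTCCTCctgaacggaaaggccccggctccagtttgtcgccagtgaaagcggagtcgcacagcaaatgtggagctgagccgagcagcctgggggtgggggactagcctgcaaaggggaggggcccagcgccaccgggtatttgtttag
Ikzf1 intronic peak, 78.4 kb: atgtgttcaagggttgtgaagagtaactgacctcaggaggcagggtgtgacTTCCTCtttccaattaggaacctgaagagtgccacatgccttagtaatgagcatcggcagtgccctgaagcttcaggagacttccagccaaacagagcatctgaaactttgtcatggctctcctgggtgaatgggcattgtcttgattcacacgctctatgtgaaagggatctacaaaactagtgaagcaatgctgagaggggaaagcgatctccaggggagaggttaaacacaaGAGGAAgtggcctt
Ikzf1 intronic peak, 27 kb: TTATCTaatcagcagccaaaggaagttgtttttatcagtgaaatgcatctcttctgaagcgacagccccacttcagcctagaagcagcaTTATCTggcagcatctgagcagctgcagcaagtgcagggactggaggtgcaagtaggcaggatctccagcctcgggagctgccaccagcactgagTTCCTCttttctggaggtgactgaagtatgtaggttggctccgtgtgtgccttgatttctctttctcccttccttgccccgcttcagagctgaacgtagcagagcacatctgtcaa

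The Ikzf1 peak at 78.4 kb held 2 PU.1 words and the one at 27 kb held 1 PU.1 and 2 GATA words. The Ebf1 peak at 280 kb held 1 word each of PU.1, RUNX, Ikaros and GATA. The promoter of Bcl11a, the member promoter open in the largest share of cells, is shown from RefSeq (GRCm38.p6) at chr11:24080445-24080669, plus strand, ending before the inner of the gene's 2 groups of protein-coding starts (chr11:24080670, 1 transcript), whereas the outer group, with 3 transcripts, begins at chr11:24078056. RefSeq promoters were at hand for 8 of the 10 genes.
Bcl11a promoter: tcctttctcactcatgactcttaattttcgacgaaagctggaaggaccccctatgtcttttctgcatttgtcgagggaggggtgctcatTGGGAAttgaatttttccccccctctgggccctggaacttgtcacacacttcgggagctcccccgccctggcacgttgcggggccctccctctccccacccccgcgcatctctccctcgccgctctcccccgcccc

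The table held 22871046 counts in 1454 cells, 818 in set 1 and 636 in set 2, with no barcode shared between them. Levels are given as counts per 1000000 counts of a set (CPM) and, between peaks, as CPM per kb of peak. A cell was called open at a peak if it kept at least 1 count there after every cell had been thinned to 4899 counts, which left 749 cells of set 1 and 560 of set 2. Intervals are exact 95% Poisson intervals for counts and exact 95% Clopper-Pearson intervals for shares of cells. They cover counting error only. Of the values above 0, 88.7% were even, as 2 cuts of 1 fragment give. The Poisson intervals, and the binomial intervals of ratios given below, are therefore narrower than the true error. Promoter peaks were found for 9 of 10 LT-HSC marker genes, with Ly6a without one, against 4 of 7 B cell, 2 of 7 T cell, 5 of 7 myeloid and 3 of 5 erythroid marker genes. Among the defining lymphoid markers, Cd3e, Cd3g, Cd4, Cd8a, Ms4a1, Vpreb1 and Igll1 had no promoter peak, whereas Cd3d had one with 33.8 CPM, open in 12.2% of cells.

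All 10 loci held a promoter peak, but the promoters differed widely in how many cells carried a count. Of the 151 peaks, 18 lay within 1000 bp of a protein-coding start of the member, 117 were intronic, 9 exonic and 5 upstream, 1 lay across the 3′ end of Ebf1 and 1 at the start of Zpbp2 beside Ikzf3. Bcl11a was open in 36.4% of thinned cells (95% interval 33.8 to 39.0), Tcf3 in 23.4% (21.1 to 25.8) and Bach2 in 18.6% (16.6 to 20.9). Foxo1 (16.3%), Ikzf2 (16.1%) and Ikzf1 (14.5%) followed closely. Satb1 (11.8%), Pax5 (9.01%) and Ebf1 (6.57%) were lower, and Ikzf3 came last with 1.38% (0.817 to 2.16). Neighbours in this order had intervals apart at 3 steps only, from Bcl11a to Tcf3, from Tcf3 to Bach2 and from Ebf1 to Ikzf3.

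The share of open cells depended on peak width. Across the 18 promoter peaks the Spearman correlation of width and share was 0.87, and across the 132 peaks outside promoters it was 0.93. These are descriptions across peaks that share the same cells. The Bcl11a promoter peak was 8518 bp wide. Per kb of peak, the promoter of Tcf3 was the most accessible (33.1 CPM per kb), ahead of Bach2 (21.0), Ikzf2 (17.2), Ikzf1 (16.5) and Bcl11a (14.7). Ebf1 (9.45 CPM per kb) and Ikzf3 (6.32 CPM per kb) were lowest on this scale too.

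**Figure D1:**
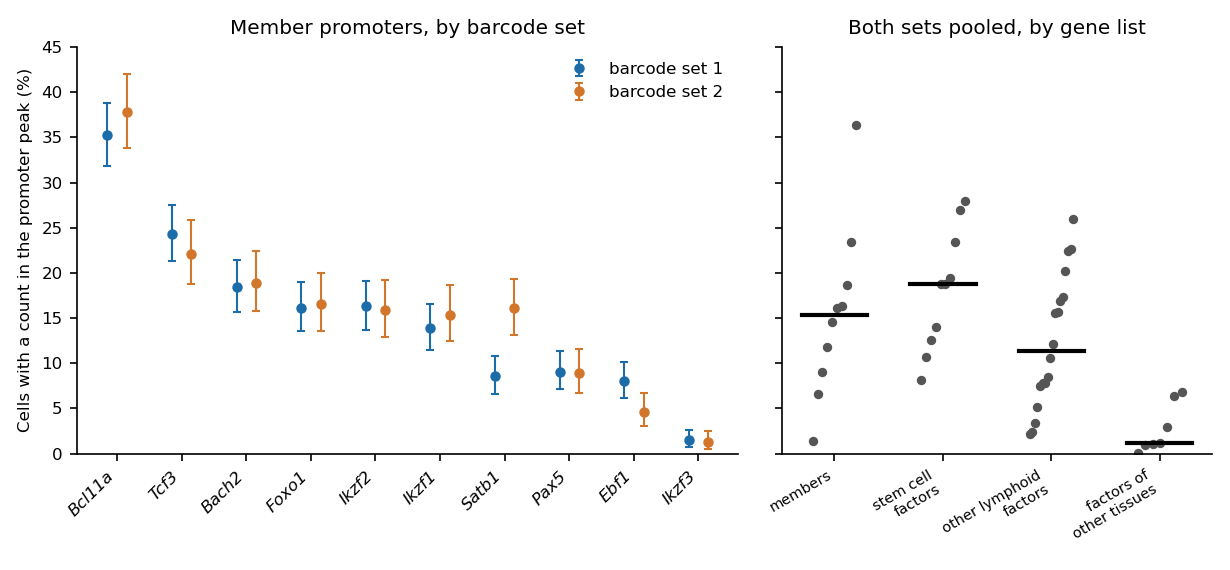
Share of thinned cells with a count in the strongest promoter peak of a gene. Left, the 10 members in each barcode set, with exact 95% intervals over 749 and 560 cells. Right, both sets pooled, 1 point per gene with a promoter peak, and lines at the list medians of 15.3%, 18.8%, 11.3% and 1.22%.

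The gene lists were compared by the strongest promoter peak of each gene, whereas values for all promoter peaks include the weaker ones. The median share of open cells was 15.3% for the members and 18.8% for 10 stem cell factor genes such as Meis1 and Gata2. It was 11.3% for the 18 of 20 other lymphoid factor genes with a promoter peak, and 8.86% for all 16656 promoter peaks with a count. The median level of the members was 13.2 CPM per kb, beside 14.3 for all promoter peaks. It was 10.7 CPM per kb for the stem cell factors and 13.0 for the other lymphoid factors. Peaks of the stem cell factors were wider, with a median of 4150.5 bp beside 2594.5 bp for the members. Members thus stood below the stem cell factors by share of cells and above them per kb. Over all 18 member promoter peaks the medians were 7.79% of cells and 8.82 CPM per kb. For the 7 of 10 factor genes of other tissues with a promoter peak the median share was 1.22%. Their peaks had a median level of 5.43 CPM per kb and a median width of 703 bp. These genes stand in for a cell type that should lack them, since every cell of the table was sorted as an LT-HSC. Pax6 had the highest share among them (6.88%, 5.56 to 8.38). The intervals of 7 members lay above that of Pax6, and those of Pax5, Ebf1 and Ikzf3 did not. Of all 16656 promoter peaks, weaker peaks of a gene included, 45.3% had an interval above that of Pax6. That share was not computed for the strongest peak of each gene, so it is no like-for-like background for the 7 members. The split at Pax6 is one of shares, and the Pax6 peak was 3180 bp wide. Per kb, Pax5 (11.2 CPM per kb) and Ebf1 (9.45) lay above Pax6 (6.37). The highest factor of other tissues per kb was Pdx1 (11.4), above Satb1 (11.0), Pax5, Ebf1 and Ikzf3.

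Other lymphoid genes covered a wide range, within the receptor genes too. Of 40 further lymphoid genes, 32 had a promoter peak, with a median share of 7.64%. The highest shares belonged to Gata3 (26.0%), a T cell factor that stem cells also use, Id2 (22.6%), an inhibitor of E proteins, and Mef2c (22.5%), a factor of lymphoid priming. The lowest belonged to Il7r and Cd79a (0.0764% each, 1 cell of 1309), which encode the interleukin-7 receptor and a B cell receptor chain, and to Rag2 (0.306%), a subunit of the antigen receptor recombinase. Other receptor genes were open in more cells than Pax5 and Ebf1, with 14.3% at Flt3, a cytokine receptor of early progenitors, 13.7% at Notch1, the receptor that starts T cell fate, and 12.2% at Cd3d, a chain of the T cell receptor complex. The median was 0.344% for the 2 of 3 recombination genes with a promoter peak, 1.22% for the 4 of 6 pre-B and B cell receptor genes with one, 6.80% for the 2 of 5 T cell receptor genes with one, and 4.58% for the 6 other lymphoid receptor genes.

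**Figure D2:**
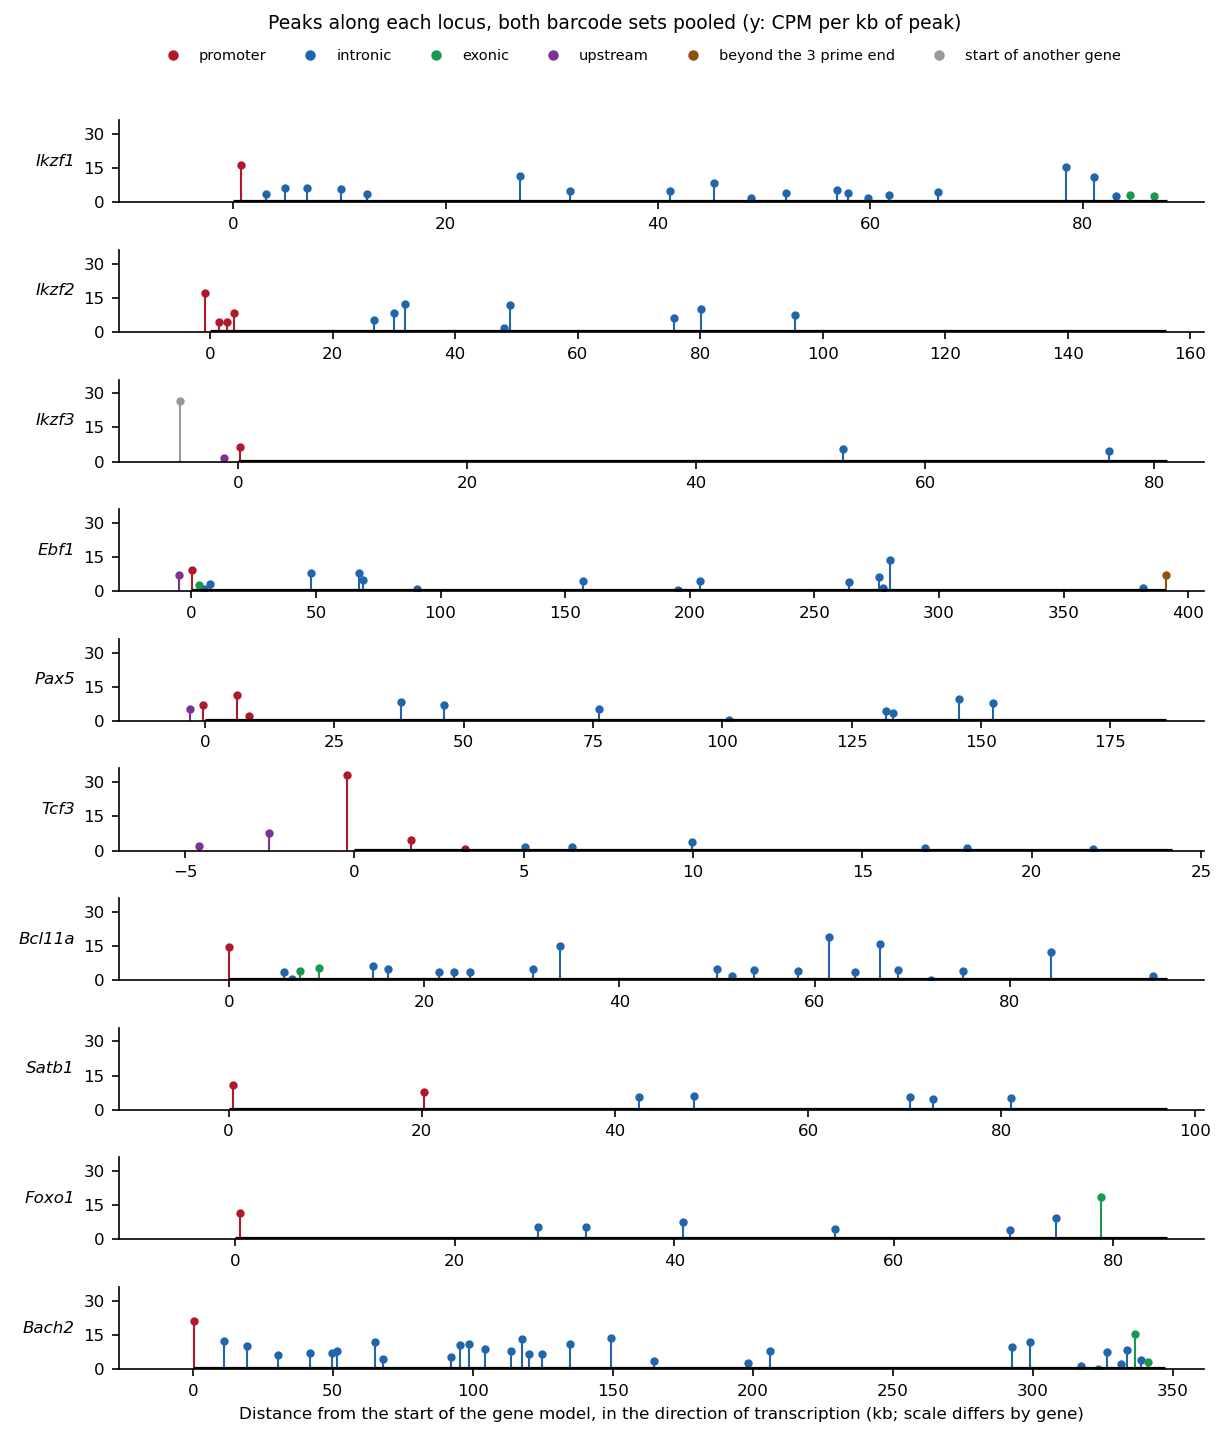
Peaks along each locus with both barcode sets pooled. The x axis is the distance of the peak's centre from the start of the gene model in kb, the y axis is CPM per kb of peak, the black bar is the gene body and colours give the class of the peak. Promoter peaks lead at Tcf3, whereas Bach2, Bcl11a and Ikzf1 carry many peaks through their introns.

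The Ikaros family was split. Ikzf1 encodes Ikaros, a zinc-finger factor needed for lymphoid development, and its locus (ENSMUSG00000018654.17, chr11:11685003-11772926, plus strand) held 22 peaks, 1 at the promoter, 19 in introns and 2 in exons. The promoter peak had 38.5 CPM in set 1 (35.2 to 42.0) and 41.0 CPM in set 2 (37.1 to 45.2), so the sets overlapped. Peaks outside the promoter carried 68.9% of the counts of the Ikzf1 locus. The most open of them was the intronic peak at chr11:11762863-11763893, 78.4 kb into the gene, with 5.88% of cells and 15.4 CPM per kb, above 93.1% of gene-body peaks outside promoters on that scale.

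Ikzf2 encodes Helios, an Ikaros relative expressed in stem cells and regulatory T cells. Its promoter peak at chr1:69686775-69689478, across the outermost start of this minus-strand gene, had 48.7 CPM in set 1 and 43.3 CPM in set 2. The other 3 Ikzf2 promoter peaks, which lay by starts further into the gene, were weak, with 62 to 90 counts in all cells. Outside promoters the most open Ikzf2 peak was intronic (chr1:69654874-69655941, 31.8 kb into the gene) with 5.12% of cells.

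Ikzf3 encodes Aiolos, which acts in later B cell stages. Its single promoter peak (chr11:98545550-98546130) held 84 counts, with 3.22 CPM in set 1 (2.32 to 4.35) and 4.28 CPM in set 2 (3.08 to 5.78). Its 2 intronic peaks held 52 and 49 counts. The whole Ikzf3 locus had 186 counts, fewest of the members, and a count in 3.06% of cells (2.19 to 4.14). The peak at the start of Zpbp2, within the 5000 bp upstream of Ikzf3, was open in 15.5% of cells and was kept apart from the Ikzf3 values.

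The B-lineage factors Ebf1 and Pax5 had promoters open in fewer cells, with intervals of the share that did not lie above that of Pax6. Per kb of peak both lay above Pax6. Ebf1, whose product specifies B-lineage fate, had a promoter peak at chr11:44616739-44618667 with 21.0 CPM in set 1 (18.6 to 23.6) and 14.6 CPM in set 2 (12.3 to 17.2). The shares of cells were 8.01% (6.17 to 10.2) and 4.64% (3.05 to 6.73), which overlapped. An upstream peak at chr11:44610795-44613631 was about as open as the promoter, with 7.18% of cells (5.84 to 8.72) and near-equal levels of 19.2 and 20.2 CPM in the 2 sets. Peaks outside the promoter held 77.1% of the counts of Ebf1, spread over a gene of 390775 bp.

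Pax5 encodes the factor that holds cells to the B lineage. The gene (chr4:44524757-44710487, minus strand) has protein-coding starts in 3 separate places, and the open one was not the outermost. The outermost group of starts, at which 11 transcripts begin, had only a peak of 50 bp with 8 counts beside it. The peak at chr4:44703010-44705494, over the starts of 2 transcripts, held 637 counts, with 27.8 CPM in set 1 and 27.9 CPM in set 2. A further Pax5 promoter peak (chr4:44701691-44702451) held 35 counts. No peak lay at the innermost start. The most open non-promoter peak of Pax5 (chr4:44672213-44673225, intronic) was open in 3.06% of cells.

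Tcf3 encodes the E2A proteins, E-box binders that act upstream of Ebf1. Its promoter peak (chr10:80432740-80434986) had 77.7 CPM in set 1 (73.0 to 82.6) and 69.9 CPM in set 2 (64.7 to 75.3), and ranked above 89.7% of promoter peaks per kb. The locus was almost all promoter, since peaks elsewhere held 12.5% of its counts. The other 2 Tcf3 promoter peaks held 19 and 3 counts. The most open Tcf3 peak outside promoters lay 2.52 kb upstream, with 3.67% of cells.

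Bcl11a encodes a zinc-finger repressor needed for B cells and for stem cell function. Its promoter peak (chr11:24073767-24082284) covered all protein-coding starts, with 119.8 CPM in set 1 (114.0 to 125.9) and 132.8 CPM in set 2 (125.7 to 140.2). The locus held 24 peaks, and 57.8% of cells had a count in at least 1 of them. Its most open intronic peak (chr11:24138707-24140281, 61.4 kb into the gene) was open in 11.5% of cells and ranked above 96.3% of gene-body peaks outside promoters per kb.

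Satb1 encodes a chromatin organizer of T cell precursors that is also used in lymphoid priming. It had 2 strong promoter peaks and little else, with 12.1% of its counts outside them. The peak over the outermost starts (chr17:51831469-51834278) had 22.1 CPM in set 1 (19.6 to 24.8) and 42.8 CPM in set 2 (38.8 to 47.1). The inner promoter peak (chr17:51811260-51814904), 20.2 kb into the gene, had 22.8 CPM (20.2 to 25.5) and 37.0 CPM (33.3 to 41.0). Both were higher in set 2 with intervals apart, and the 2 groups of Satb1 starts between these peaks that lay over 1000 bp from either had no peak. The most open of its 5 intronic peaks held 55 counts and was open in 1.07% of cells.

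Foxo1 encodes a forkhead factor that switches on Il7r and the Rag genes in lymphoid precursors. Its promoter peak (chr3:52266553-52271024) had 53.2 CPM in set 1 (49.3 to 57.3) and 51.9 CPM in set 2 (47.5 to 56.6). The most open Foxo1 peak outside the promoter (chr3:52342015-52344168, intronic) was open in 7.56% of cells, with 20.0 and 20.3 CPM.

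Bach2 encodes a repressor that restrains myeloid genes in lymphoid precursors, and its locus had a count in more cells than any other of the 10. The 347305 bp of the gene held 32 peaks, and 73.0% of cells (70.5 to 75.3) had a count in at least 1 of them. Per kb of peak the Bach2 locus had 10.5 CPM, below Tcf3 (15.6) and Ikzf2 (10.8) and close to Bcl11a (10.1). The promoter peak (chr4:32237681-32240522) had 57.1 CPM in set 1 (53.1 to 61.3) and 63.0 CPM in set 2 (58.2 to 68.2). Peaks outside the promoter carried 83.4% of the counts of Bach2, the highest portion among the members. The intronic peak at chr4:32248204-32251487 was open in 13.8% of cells (12.0 to 15.8), with 37.5 CPM in set 1 and 45.5 CPM in set 2, and the one at chr4:32335618-32338960 in 12.5% (10.7 to 14.4), with 41.8 and 31.7 CPM. The interval of the first lay above those of the Pax5 (7.52 to 10.7), Ebf1 (5.29 to 8.05) and Ikzf3 promoters. No peak lay at the inner start of Bach2, which is the start of its RefSeq promoter.

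Most peaks outside promoters were open in few cells. The median share of the 132 peaks was 0.879% of thinned cells, beside 1.22% for all 40899 gene-body peaks outside promoters with a count. Of the 132, 2 had no count, 99 had at least 20 counts and 52 at least 100.

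The next question was how far the 2 barcode sets differed at these loci, for which a peak had to hold at least 20 counts and its CPM, with 1 CPM added, had to differ 1.5-fold. With 1 sample per group and no label for the sets there is no test. Of the 18 promoter peaks 15 held enough counts. None was past the fold towards set 1, as were 6.17% of all promoter peaks, and 2, both of Satb1, were past it towards set 2, as were 5.11% of all promoter peaks. Of the 99 peaks outside promoters, 12 were past the fold towards set 1 and 18 towards set 2, where the background over gene-body peaks outside promoters was 16.6% and 18.1%. Among the 52 with at least 100 counts, 7 and 8 were past it, beside 15.3% and 15.4%. As shares, the member peaks outside promoters stood at 12.1% and 18.2% with at least 20 counts and at 13.5% and 15.4% with at least 100, near or below the background.

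**Figure D3:**
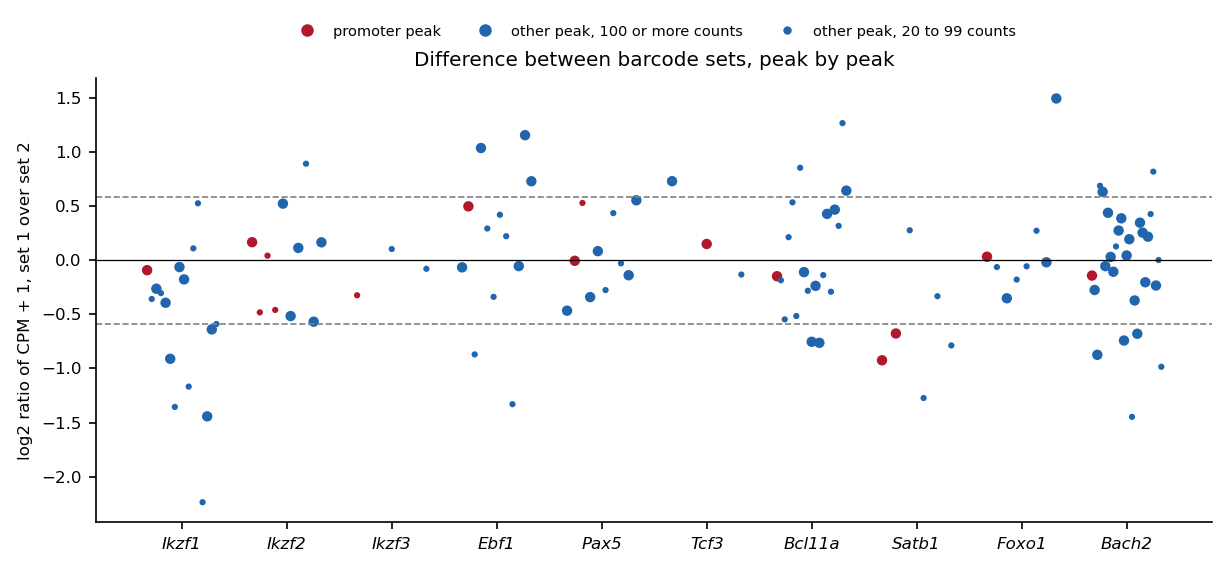
Log2 ratio of CPM + 1, set 1 over set 2, for each member peak with at least 20 counts, ordered along each gene. Dashed lines mark 1.5-fold. The Ikzf1 peaks outside the promoter lie mostly below 0 and both Satb1 promoter peaks lie below the lower line.

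At Ikzf1 the difference lay in the introns and not at the promoter, whose sets overlapped as given above. Of 15 Ikzf1 peaks outside the promoter with at least 20 counts, 13 had the lower level in set 1 and 7 of these were past the fold. Among all gene-body peaks outside promoters with at least 20 counts, 18.1% were past it towards set 2. The median log2 ratio of those peaks was 0.012, and their share below 0 was not computed. The intronic peak at 78.4 kb had 8.73 CPM in set 1 (7.21 to 10.5) and 25.5 CPM in set 2 (22.4 to 28.8), a 2.72-fold difference. In thinned cells it was open in 3.20% of set 1 (2.06 to 4.73) and 9.46% of set 2 (7.17 to 12.2), so the sets were apart on both measures. The peak at 27 kb (chr11:11711745-11712265) had 4.14 and 8.66 CPM, and the peak at 81.1 kb (chr11:11765450-11766753) had 11.4 and 18.3 CPM. The largest ratio of any member peak with at least 20 counts, looked up after the values were seen, was at 66.4 kb in Ikzf1 (chr11:11751153-11751553), with 1 count in set 1 (0.0766 CPM, 0.00194 to 0.427) and 40 in set 2 (4.07 CPM, 2.91 to 5.55). Summed over the Ikzf1 peaks outside the promoter, the levels were 67.7 CPM in set 1 (63.3 to 72.3) and 114.1 CPM in set 2 (107.5 to 120.9).

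At Ebf1 the stronger peaks past the fold had more counts in set 1. Its intronic peak at 280 kb (chr11:44896902-44898013) had 20.3 CPM in set 1 (17.9 to 22.9) and 8.55 CPM in set 2 (6.82 to 10.6). It was open in 8.14% (6.29 to 10.3) and 3.04% (1.78 to 4.82) of thinned cells. The Ebf1 peak at 48.1 kb (chr11:44665095-44665694) had 6.28 and 2.55 CPM, and the peak across the 3′ end had 5.90 and 3.16 CPM. All 3 were higher in set 1, while 2 weaker Ebf1 peaks were past the fold towards set 2.

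Among member peaks with at least 100 counts, the largest ratio towards set 1 was at Foxo1, in a peak whose centre lies in the 3′ untranslated exon (chr3:52346872-52347457). It had 15.3 CPM in set 1 (13.3 to 17.6) and 4.79 CPM in set 2 (3.52 to 6.36), and was open in 5.87% (4.30 to 7.81) and 2.14% (1.11 to 3.71) of cells. The peak 2.52 kb upstream of Tcf3 (chr10:80435640-80436689) had 9.96 and 5.60 CPM and was open in 5.34% (3.84 to 7.20) and 1.43% (0.619 to 2.80) of cells. Its Tcf3 promoter neighbour differed by less, as given above.

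Bcl11a and Bach2 held peaks past the fold in both directions. At Bcl11a the intronic peaks at 33.9 kb (7.51 and 13.3 CPM) and 53.8 kb (3.37 and 6.42 CPM) were lower in set 1, and that at 84.2 kb (12.2 and 7.43 CPM) was higher. At Bach2 the intronic peaks at 19.3 kb (7.05 and 13.7 CPM), 104 kb (13.5 and 23.2 CPM) and 135 kb (8.66 and 14.5 CPM) were lower in set 1, and that at 41.9 kb (15.4 and 9.57 CPM) was higher. Summed over the locus the levels were close, with 237.6 and 241.0 CPM at Bcl11a and 353.9 and 365.6 CPM at Bach2. Without its promoter peak, whose CPM intervals overlapped between the sets, the Bcl11a locus had a log2 ratio of 0.12 (95% interval 0.0079 to 0.236). That interval counts both cuts of a fragment and nearly reaches 0, so it does not settle a difference.

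**Figure D4:**
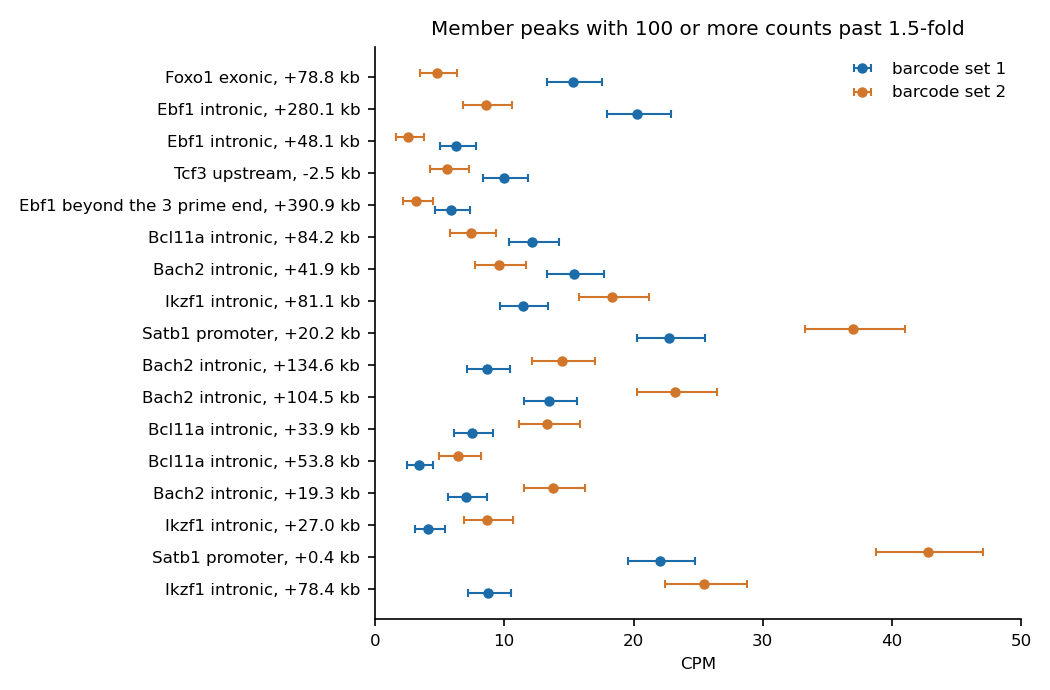
CPM in each barcode set, with exact 95% Poisson intervals, for the 17 member peaks with at least 100 counts and past 1.5-fold, named by gene, class and distance from the gene start. The Ikzf1 peak at 78.4 kb and the Foxo1 exonic peak show the widest ratios.

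Summed over whole loci, Satb1 (51.5 and 90.1 CPM) and Ikzf1 (106.1 and 155.1 CPM) were higher in set 2, and Ebf1 (89.5 and 66.6 CPM) and Tcf3 (92.0 and 78.2 CPM) in set 1. The exact binomial interval of the ratio excluded equality for these 4 of 10 loci, 2 in each direction, where 22.4% of 15899 loci of protein-coding genes did so towards set 1 and 22.1% towards set 2. With at most 1 count allowed per peak and cell, so that the paired cuts no longer entered, the interval of Tcf3 no longer excluded equality (log2 ratio 0.19, -0.04 to 0.42). The median locus among those had 1008 counts, and the median member 2161, so the members had the narrower intervals. The summed promoter levels of 3 of 5 marker lists also lay apart between the sets, by Poisson intervals narrower than the true error. How many sums over comparable gene lists do so was not computed. LT-HSC markers summed to 356.6 CPM in set 1 (346.4 to 367.0) and 313.9 CPM in set 2 (303.0 to 325.2), with Procr and Hoxb5 among those past 1.5-fold towards set 1. Within this list Meis1 and Fgd5 were slightly lower in set 1. T cell markers summed to 31.8 (28.8 to 35.0) and 44.9 CPM (40.8 to 49.3), with Lck past the fold towards set 2. Only 2 of these 7 genes had a promoter peak, and most of the sum came from Cd3d (29.7 and 39.3 CPM). Erythroid markers summed to 83.6 (78.7 to 88.7) and 64.8 CPM (59.8 to 70.0), with Epor past the fold towards set 1. The intervals of the B cell markers (13.4 to 17.8 and 17.0 to 22.6) and of the myeloid markers (50.8 to 59.0 and 53.3 to 62.9) overlapped between the sets, with Mpo and Itgam past the fold towards set 2. The part of these markers in the member differences was not tested.

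Whether the promoter and the other peaks of a locus were open in the same cells was asked next. Of the cells with an open Ikzf1 promoter 24.7% also had another open Ikzf1 peak (18.8 to 31.5), against 25.4% of the cells without one (22.9 to 28.0). At Ebf1 the shares were 31.4% (21.8 to 42.3) and 20.0% (17.7 to 22.3), and at Bcl11a 38.9% (34.5 to 43.4) and 33.6% (30.4 to 36.9). The share was higher with an open promoter at 6 of 10 members, the median difference was 2.16 percentage points, and the intervals overlapped at all 10. With both sets pooled the gap was widest at Ebf1, with 11.4 percentage points. The sets are parts of those same cells, with 33.3% and 23.4% in set 1 and 26.9% and 15.5% in set 2. The 26.9% was 7 of 26 cells (11.6 to 47.8). In set 2 alone Ikzf3 had a wider gap of 12.8 points, with 7 cells with an open promoter. The differences themselves were not tested.

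Each cell showed few of the member promoters. The median thinned cell had 2 of the 10 open in both sets, 17.0% of cells had none and 0.917% had 5 or more. Counting any peak of a locus, the median was 3 members and 1.91% of cells had none. Without a count a promoter may still be open, since only 4899 counts were kept per cell.

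**Figure D5:**
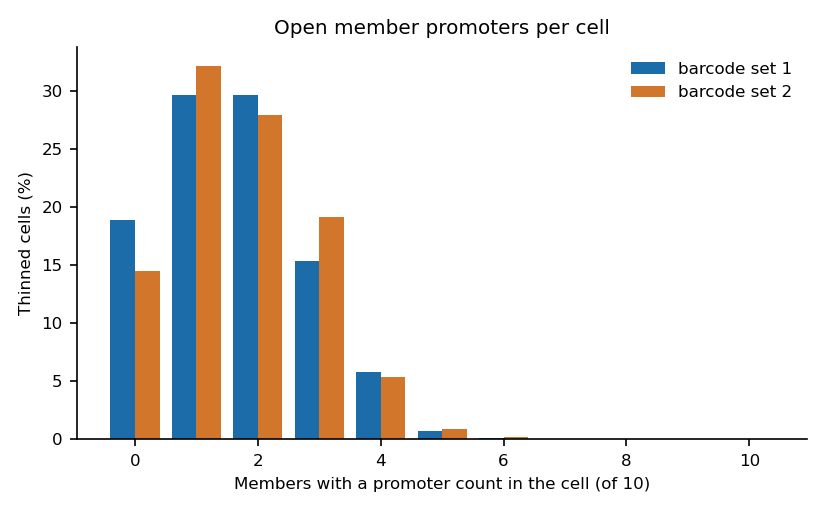
Percent of thinned cells by the number of member promoters with a count, in 749 cells of set 1 and 560 of set 2. Both sets peak at 1 to 2 members, and no cell has more than 6.

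How often sequence words stood in the member peaks, beside all peaks of their class, depended on the window searched. In the central 300 bases of the 130 member peaks outside promoters that held a count, the E-box CANNTG was found in 80.0% (all such gene-body peaks 82.2%) and the PU.1 word GAGGAA in 35.4% (38.0%), on either strand. The RUNX word TGTGGT was found in 26.9% (30.8%), the Ikaros word TGGGAA in 26.2% (26.1%), the FOXO word GTAAACA in 3.08% (3.95%) and the GATA word AGATAA in 17.7% (14.2%). The EBF1 palindrome was found in 1.54% (0.782%), which is 2 peaks. In the 52 of these peaks with at least 100 counts the GATA word was found in 26.9%, beside 14.5% of all, and in the central 500 bases in 28.8%, beside 22.8%. In the central 500 bases of all 130 peaks the GATA word was found in 23.8%, beside 23.0%. In the central 300 bases of the 18 promoter peaks GAGGAA was found in 22.2% (all promoter peaks 27.3%), and the EBF1 palindrome and the FOXO word in none. The FOXO word was found in 3 of them in the central 500 bases (16.7%, all 3.41%) and in 6 over the whole peak (33.3%, all 14.9%), and the EBF1 palindrome in 2 over the whole peak (11.1%, all 6.84%). Every other word was found over the whole peak in a smaller share than in all promoter peaks. Among these were the RUNX word (44.4%, all 55.8%) and the E-box (88.9%, all 96.5%). A word match is a description of the sequence and not a binding site. The member promoter peaks had a median width of 2088 bp, beside 1524 bp for all promoter peaks, and a median GC content of 58.2%, beside 61.7%. Outside promoters the median GC content was 48.3%, beside 49.0%.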

How the data were processed

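Single-cell ATAC-seq of mouse LT-HSCs was deposited as tables of counts per peak and barcode, made by the authors with Cell Ranger ATAC 1.2.0 on mm10 (GRCm38) per the labels. The deposited counts are raw. The second table was not used here, since its rows carry no peak names. Peaks were placed on GENCODE M21 genes and the RefSeq GRCm38.p6 genome with an overlap of at least 1 bp. CPM, log2 ratios (pseudocount 1 CPM) and exact intervals were computed with Python 3.11.15, numpy 2.4.6, scipy 1.17.1 and pandas 2.3.3. For shares, 4899 counts (the 10th percentile over cells) were drawn from each cell, which left out 145 of 1454 cells. No cells were filtered otherwise, no doublet caller was run, and 57 cells had over 3 times the median counts (13358.5 in set 1 and 12755 in set 2). The functions for ratios and thinning were tested on simulated data.

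Named were all 10 members, their promoter peaks, the most open non-promoter peak of each, and non-promoter peaks with at least 100 counts past 1.5-fold. Sequences overlapping an annotated untranslated exon were passed over. Words were searched on both strands. The members, lists and rules were chosen with earlier results of these data known. Alternatives covered windows, thinning, scaling, minimum counts, folds and deep cells. Single values of some marker genes are not reported here.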

Additional observations from a re-analysis of the deposited data

How the results depend on the processing

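No paired analysis was possible because each group is 1 sample and the barcode sets carry no group. Of 47 alternatives for the main results 33 stayed within the counting interval or within 1.5 times the count. Shares of cells rose with depth: the median promoter share was 26.0% without thinning and 25.8% at 9798 counts per cell, and that of peaks outside promoters 2.10% and 1.74%. The order of the promoters was the same without thinning, and at 9798 counts Ikzf2 (27.8%) passed Foxo1 (26.8%). Counting each peak once per cell gave a median promoter level of 10.9 CPM per kb. Of peaks outside promoters, 7 of 58 were past the fold towards set 1 and 9 of 58 towards set 2 in thinned cells (background 20.1% and 18.1%), and 2 and 5 of 99 with a pseudocount of 5 CPM, and 4 and 7 of 99 at a fold of 2. Towards set 2 there were 11 of 86 when each peak counted once per cell (background 16.9%) and 9 of 68 with at least 50 counts (16.8%), so fewer peaks were tested in these settings. Of the 15 member promoter peaks with enough counts 0 were past a fold of 2, where 3.29% of all promoter peaks were, by counts alone with no test run. The background for peaks outside promoters was 4.91% and 6.79% with the larger pseudocount and 5.95% and 8.10% at a fold of 2. Of the 60 values for single loci none that excluded equality changed sign, and Tcf3 no longer excluded it when each peak counted once per cell (log2 ratio 0.19, -0.04 to 0.42). Leaving promoter peaks out raised the loci that excluded equality from 4 to 6, with Bcl11a (0.12, 0.0079 to 0.236) and Foxo1 (0.20, 0.0285 to 0.368) added. Leaving out the deepest cells added Pax5 (0.17, 0.0016 to 0.335). The lower bounds of these added loci lie near 0, and the intervals count both cuts of a fragment, so they are too narrow. Neither setting was run with each peak counted once per cell.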

Other observations

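Each group is 1 pool of mice and the barcode sets are not tied to groups, so neither an age nor a CLCA3A1 difference can be read from these loci, and the spread between animals is unknown. Both sets share 1 list of peaks, and regions outside that list were not analysed here. Most counts come in pairs from 1 fragment: of the 357 cells with a count in the Ikzf1 promoter, 75.6% had exactly 2. A peak inside a gene body need not act on that gene.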
